A study of Homo sapiens with 24 samples.

Results

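Regions that carried both H3K4me1 and H3K27me3 were examined in UMUC1 cells, an established line of human bladder cancer. A region, called a member below, was a stretch of at least 200 bp on which a broad H3K4me1 region and a broad H3K27me3 region of the empty-vector line overlapped. There were 7149 members, drawn from 138215 H3K4me1 regions and 231795 H3K27me3 regions of that line, of 1482626 regions and peaks in all 18 lists. The members were thus chosen by the H3K4me1 and H3K27me3 regions of the empty-vector line, so their values in that line are a description and were not tested. The H3K4me1 and H3K27me3 lists of the other lines, and all lists of H3K27ac, UTX and MLL4, took no part in the choice.

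The study profiled 3 stable lines by chromatin immunoprecipitation sequencing (ChIP-seq), which maps where a histone mark or protein sits on DNA. HEAA cells expressed UTX with the substitutions H1146A and E1148A from a pSIN-puro vector, WT cells expressed wild-type UTX from the same vector, and EV cells held the empty vector. All cells were harvested 3 days after plating. The labels do not say whether a line was 1 clone or a pool. Each line had 1 list for H3K4me1, H3K27me3, UTX and MLL4 and 2 numbered libraries for H3K27ac. The peak names of the UTX lists contain the word merged and those of the MLL4 lists the words merged input, and what was merged is not stated, so a UTX list may rest on more than 1 library.

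H3K4me1 is a mark of enhancers, both idle and in use, and is written largely by the methyltransferases MLL3 and MLL4. H3K27me3 is the silencing mark of the Polycomb repressive complex PRC2, and UTX (KDM6A), a subunit of the MLL3 and MLL4 complexes, is an enzyme that removes it. An enhancer with H3K4me1 and H3K27me3 is usually called poised. H3K27ac, which uses the same lysine as H3K27me3, marks active enhancers and promoters, and 1 histone tail cannot carry both. The assay averages over many cells, so a member may hold both marks on 1 nucleosome or on different alleles or cells, and these cannot be told apart.

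The H3K4me1 lists covered 186 Mb in HEAA, 179 Mb in WT and 157 Mb in EV. The H3K27me3 lists covered 251 Mb in HEAA, 168 Mb in WT and 239 Mb in EV. The H3K27ac lists covered 110 and 48.3 Mb in HEAA (libraries 1 and 2), 96.0 and 55.3 Mb in WT, and 88.1 and 71.6 Mb in EV, so library 1 was longer than library 2 in each line. The UTX list held 2854 peaks in HEAA and 2565 in WT, against 31 in EV. A longer list finds more of any set of regions, and the depth of sequencing is unknown for every list. A site without a region is one below the authors' calling threshold, which is not the same as one without signal. Fold enrichments and q-values are the authors' own and serve only to describe or rank regions within a list.

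The members were short and few compared with the lists they came from. Their width ran from 200 to 5045 bp with a median of 383 bp and quartiles of 274 and 578 bp, and they covered 3.53 Mb. That length was 2.24% of the H3K4me1 bases and 1.47% of the H3K27me3 bases of EV. They lay on 6992 H3K4me1 regions (5.06% of that list) and on 6558 H3K27me3 regions (2.83%). Most had a small H3K4me1 region inside a broader H3K27me3 region. In 3867 members (54.1%) the H3K4me1 region lay wholly within the H3K27me3 region, in 2684 (37.5%) the regions overlapped at an edge, and in 598 (8.36%) the H3K27me3 region lay within the H3K4me1 region.

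The H3K4me1 regions behind the members were narrower than that list as a whole, with a median of 525 bp against 741 bp for all, and a median fold enrichment of 2.72 against 2.91. The H3K27me3 regions behind them were broader, with a median of 1558.5 bp against 613 bp for all, and a median fold enrichment of 2.72 against 2.44. Lowering the limit to 1 bp gave 8876 intersections, 1727 of them under 200 bp. Just outside the limit, 532 intersections measured 150 to 199 bp, and 11.8% of them had both marks over at least 50% of their length in HEAA and 8.46% in WT. Just inside it, 1223 members measured 200 to 249 bp, and 22.3% had both marks by the same measure in HEAA and 16.6% in WT.

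The marks met less often than fixed shifts of the lists made them meet. Moving the H3K27me3 regions of EV by 100 kb to the left gave 19245 intersections of at least 200 bp, and moving them to the right gave 19363, against 7149 in place. The covered length in place was 3.53 Mb, or 0.275 of the mean of the shifted placements (12.8 Mb). The same intersection made within the other lines gave 8232 regions and 4.06 Mb in HEAA (0.278 of the shifted length) and 6046 regions and 2.88 Mb in WT (0.295). The ratio depended on the distance of the shift and was 0.429 at 10 kb and 0.217 at 1 Mb in EV, below 1 at all 3 distances.

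Members were spread unevenly over the genome. Chromosome 7 held 725 (10.1%), chromosome 2 held 652, chromosome 15 held 633 and chromosome 20 held 543. The X chromosome held 30 and chromosome 18 held 41. Of the chromosomes, 20 gave the largest share of its H3K4me1 bases to members (5.02%) and X the smallest (0.553%). Over the genome that share was 2.24%. It was 3.98% on chromosome 7, 4.70% on chromosome 15 and 0.602% on chromosome 18. Chromosome 2, at 2.24%, stood at the genome share despite its high count. With members less than 10 kb apart joined, there were 5268 clusters, and 3998 members (55.9%) stood alone. The largest cluster held 16 members on chromosome 15 from 29382154 to 29434117, of which 7 kept both marks in HEAA and 8 in WT, and none had H3K27ac in any library. Of all members, 4.43% had H3K27ac in at least 1 library. The next clusters held 9 members each, on chromosome 9 from 126758083 to 126785211 and on chromosome 15 from 89892074 to 89909416.

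About 1 in 3 members carried both marks in the lines that expressed UTX, and the rest lacked the call of one or both. A mark was counted at a member where its regions covered at least 200 bp of it. In HEAA cells, 2500 of 7149 members had both marks (35.0%, 95% Wilson interval 33.9% to 36.1%), 1741 had H3K4me1 only (24.4%), 1739 had H3K27me3 only (24.3%) and 1169 had neither (16.4%). In WT cells, 2027 had both marks (28.4%, 27.3% to 29.4%), 1894 had H3K4me1 only (26.5%), 1603 had H3K27me3 only (22.4%) and 1625 had neither (22.7%). The intervals cover counting error only, and with 1 list per line a difference between lines has no replicate check. Both marks were called in all 3 lines at 1539 members (21.5%), and neither mark was called in HEAA or WT at 720.

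The higher share of both marks in HEAA than in WT did not hold at equal list length. With the lists of each mark limited to their strongest regions, up to the covered length of the shortest list, both marks were called at 20.8% of members in HEAA and 21.3% in WT. H3K4me1 was then called at 43.4% in HEAA and 43.5% in WT, and H3K27me3 at 50.0% in HEAA and 50.8% in WT. The members had been chosen from the full lists of EV. With its lists limited in the same way, EV itself had both marks at 76.3% of members. In the lists as deposited, H3K4me1 was called at 59.3% in HEAA and 54.8% in WT, and H3K27me3 at 59.3% in HEAA and 50.8% in WT. WT had the shortest H3K27me3 list.

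**Figure D1:**
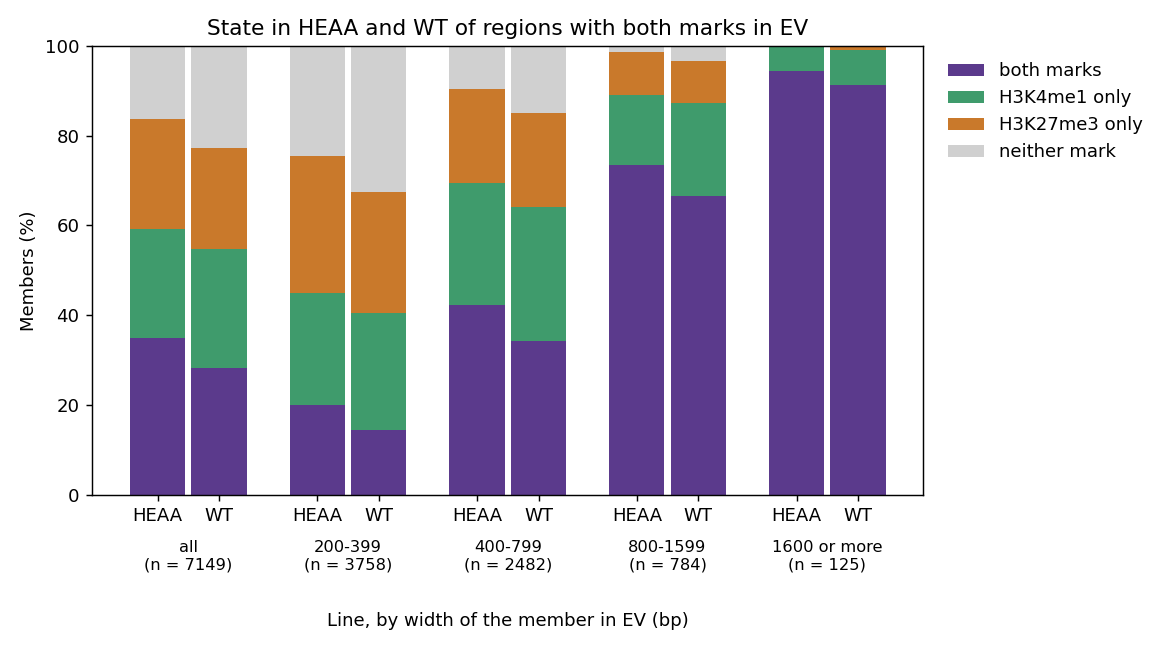
Share of members (%, vertical axis) with both marks, H3K4me1 only, H3K27me3 only or neither in HEAA and in WT, for all 7149 members and by their width in EV (bp). Members of 1600 bp or more kept both marks at 94.4% in HEAA and 91.2% in WT, while those of 200 to 399 bp did so at 20.1% in HEAA and 14.4% in WT.

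Width separated the members that kept both marks from those that did not, as the plot of states by width shows. Of the 3758 members of 200 to 399 bp, 20.1% had both marks in HEAA and 14.4% in WT, and of the 2482 members of 400 to 799 bp, 42.3% did in HEAA and 34.3% in WT. Of the 784 members of 800 to 1599 bp, 73.5% had both marks in HEAA and 66.6% in WT. Of the 125 members of 1600 bp or more, 118 had both marks in HEAA and 114 in WT. A member close to 200 bp must be covered almost whole to count, and a wider one only in part. How far the trend goes with this rule was not tested. When at least 50% of the member had to be covered instead, both marks were called at 32.7% of all members in HEAA and 25.8% in WT. By that measure, members of 200 to 249 bp had both marks at 22.3% in HEAA and 16.6% in WT.

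Which mark stayed followed the layout in EV. Where the H3K4me1 region lay inside the H3K27me3 region, H3K27me3 was called again at 71.9% in HEAA and 63.6% in WT, and H3K4me1 at 52.1% in HEAA and 47.9% in WT. Where the H3K27me3 region lay inside the H3K4me1 region, the order turned round, with H3K27me3 at 31.1% in HEAA and 24.4% in WT and H3K4me1 at 79.9% in HEAA and 76.3% in WT. At overlapping edges, H3K27me3 was called at 47.4% in HEAA and 38.2% in WT, and H3K4me1 at 65.2% in HEAA and 60.1% in WT. In both nested layouts, the mark with the enclosing region in EV was the one called more often in HEAA and in WT. The enclosed region is always the narrower one, and the width and strength of the EV regions were not adjusted for here.

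Over all members together, the share with H3K27me3 was close with and without H3K4me1. It was lower with H3K4me1 among narrow members and higher with it within each layout in EV. In HEAA, H3K27me3 was called at 58.9% of the members that had H3K4me1 and at 59.8% of those that did not. In WT, the same shares were 51.7% and 49.7%. Among members of 200 to 399 bp, the shares with and without H3K4me1 were 44.6% and 55.4% in HEAA, and 35.5% and 45.2% in WT. At 400 to 799 bp they were 61.0% and 68.7% in HEAA, and 53.5% and 58.1% in WT. At 800 to 1599 bp they were 82.4% and 88.2% in HEAA, and 76.2% and 73.7% in WT, with 85 members in HEAA and 99 in WT lacking H3K4me1. By layout the share was higher with H3K4me1 in both lines, though by little where the H3K27me3 region lay inside. With the H3K4me1 region inside, H3K27me3 was called in HEAA at 1499 members with H3K4me1 and not at 514. Of those without H3K4me1, 1282 had it and 572 did not. In WT these counts were 1243 and 608 with H3K4me1, and 1215 and 801 without. Width and layout were not adjusted for together. Between lines, a swap of one mark for the other was rare. At 39 members HEAA had H3K4me1 only where WT had H3K27me3 only, and at 92 the reverse was seen, while 1197 had H3K4me1 only and 1006 had H3K27me3 only in both lines.

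Members lacked the H3K4me1 call in the UTX lines more often than the list they came from, and the H3K27me3 call about as often or less. H3K4me1 was not called in HEAA at 2908 members (40.7%), beside 21.3% of all EV H3K4me1 regions, and not called in WT at 3228 (45.2%), beside 23.5%. H3K27me3 was not called in HEAA at 2910 members (40.7%), beside 42.3% of all EV H3K27me3 regions, and not called in WT at 3519 (49.2%), beside 54.5%. The background regions are wider than the members, so the comparison was repeated per base and within bands of the q-value of the EV region.

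Per base, H3K4me1 was called again over 60.7% of the members' length in HEAA, against 80.2% of the rest of the EV H3K4me1 length, and over 55.8% in WT, against 77.2%. Within each of 5 bands of −log10 q the members stayed below the rest, by 6.07 to 10.7 percentage points in HEAA and by 7.40 to 11.9 points in WT. For the weakest H3K4me1 regions (−log10 q under 1.5), 34.6% of member bases were called again in HEAA, against 45.3% of the rest, and for the strongest (5 or more), 83.6%, against 90.1%. The gap was thus present at weak and strong regions alike. The bands matched the q-value only, and the width of the region and the position of the bases within it were not matched.

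For H3K27me3 the members' bases were called again at 62.2% in HEAA, against 59.5% of the rest, and at 53.5% in WT, against 45.1% of the rest. Within bands the sign varied. In HEAA the members lay below the rest by 8.09, 10.6 and 8.31 points in the 3 weakest bands and by 1.77 points in the next, and lay 0.0875 points above it in the strongest. In WT they lay below it by 2.68, 4.25 and 2.90 points in the 3 weakest bands and above it by 1.31 and 4.78 points in the 2 strongest. The H3K27me3 regions behind the members had a median −log10 q of 2.49, against 1.82 for the list. How far this goes with the members' higher share over all bands was not tested.

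**Figure D2:**
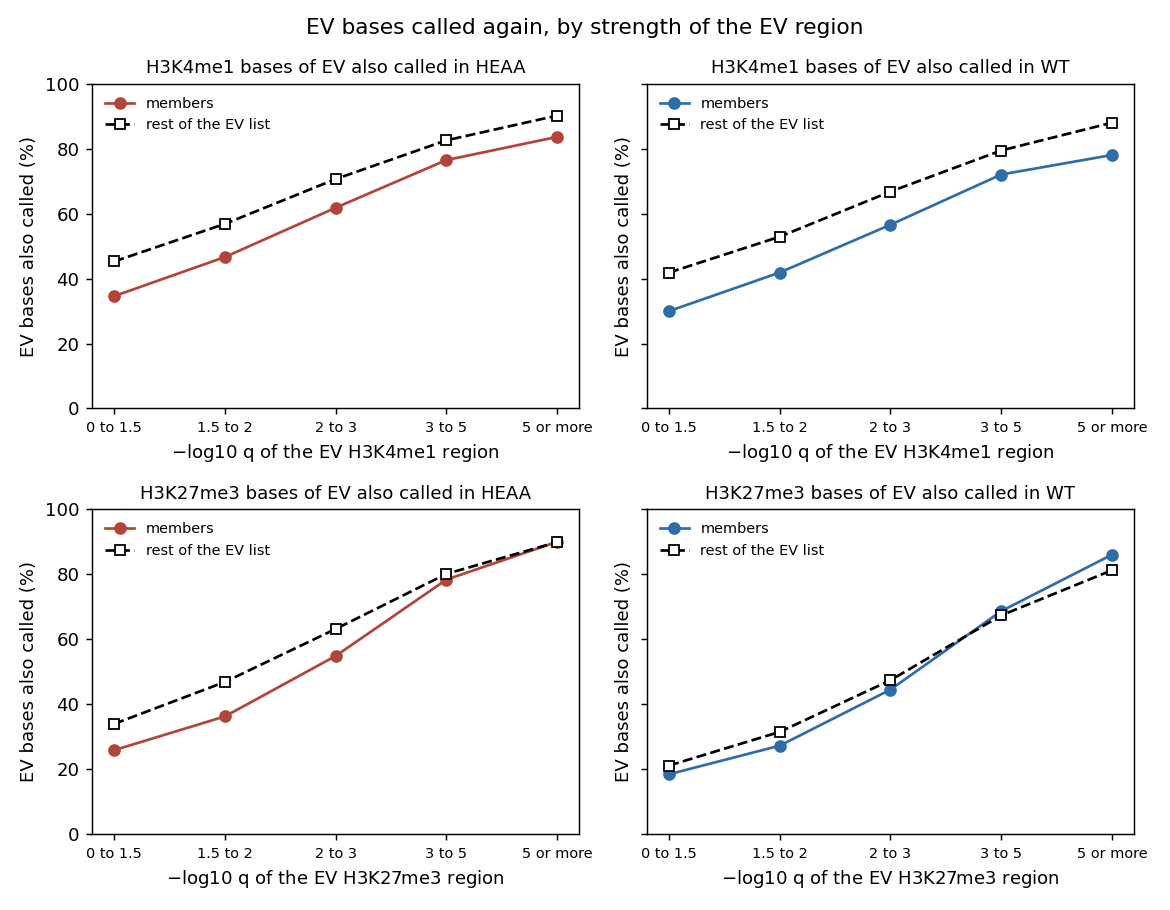
Share of EV bases called again (%, vertical axis) in HEAA (left) and WT (right) for H3K4me1 (top) and H3K27me3 (bottom), by band of −log10 q of the EV region (horizontal axis), for members (filled points) and the rest of the EV list (open squares). For H3K4me1 the members lie below the rest in all 5 bands of both lines, by 6.07 to 11.9 percentage points, while for H3K27me3 the lines meet or cross at strong regions.

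Members that kept both marks were also wider and stronger in EV, which is description since EV chose them. In HEAA, members with both marks had a median EV width of 546.5 bp, against 288 bp for those with neither mark. Their median EV fold was 2.86 for H3K4me1 and 3.02 for H3K27me3, against 2.61 and 2.54 for those with neither. In WT the same medians were 577 bp, 2.88 and 3.06 for members with both marks, against 298 bp, 2.62 and 2.56 for those with neither. Ranked by the mean of their 2 EV fold ranks and divided into 10 groups of 714 or 715 members, the strongest group had both marks at 72.7% in HEAA and 67.0% in WT, and the weakest group at 12.4% in HEAA and 8.95% in WT. These groups were chosen after other values had been seen.

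Around the members, H3K4me1 was a narrow peak and H3K27me3 a broad domain. At the centre, H3K4me1 covered 59.5% of members in HEAA, 54.5% in WT and, by the rule, 100% in EV. At 2 kb to the right it covered 11.0% in HEAA, 9.86% in WT and 9.32% in EV, and at 10 kb 9.57%, 8.53% and 8.04% in the same order of lines. H3K27me3 covered 59.0% at the centre in HEAA and 49.7% in WT. At 2 kb it still covered 41.8% in HEAA, 33.0% in WT and 48.2% in EV, and at 10 kb 30.7% in HEAA, 23.7% in WT and 32.3% in EV.

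**Figure D3:**
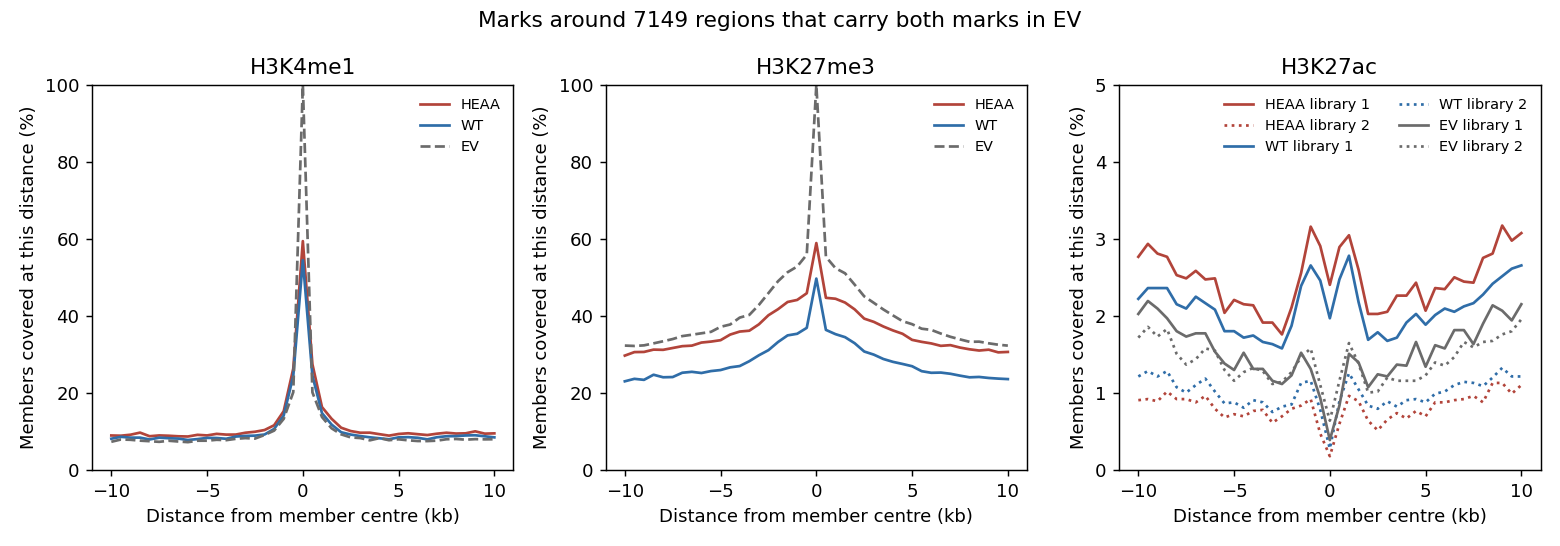
Share of the 7149 members covered (%, vertical axis) by regions of H3K4me1, H3K27me3 and H3K27ac at each distance from the member's centre (kb, horizontal axis), in HEAA, WT and EV; the axis of the H3K27ac panel ends at 5%. H3K4me1 falls to about its flanking level within 2 kb, H3K27me3 stays high across the window, and H3K27ac is lower at the centre than 1 kb away in all 6 libraries.

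The same rule was also applied to the lists of HEAA and of WT. Of the 8232 regions with both marks in HEAA, 34.6% had both in WT and 30.3% had both in EV. Of the 6046 regions with both marks in WT, 45.9% had both in HEAA and 32.7% had both in EV. Read in EV, the most common state was H3K27me3 only, at 38.9% of the HEAA regions and 41.2% of the WT regions. H3K4me1 alone was less common there, at 11.2% of the HEAA regions and 10.8% of the WT regions. The EV list of H3K4me1 was the shortest of the 3.

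H3K27ac was rare on the members in all 6 libraries. It covered at least 200 bp of 215 members in HEAA library 1 (3.01%) and of 20 in HEAA library 2 (0.280%). It did so at 173 members in WT library 1 (2.42%) and 38 in WT library 2 (0.532%), and at 35 in EV library 1 (0.490%) and 54 in EV library 2 (0.755%). The first libraries of HEAA and WT stood above the other 4. HEAA library 2 lay below both EV libraries, and WT library 2 lay between them.

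H3K4me1 regions as a whole carried H3K27ac far more often. Of all EV H3K4me1 regions, 43.3% had H3K27ac in HEAA library 1, 19.7% in HEAA library 2, 38.5% in WT library 1, 22.9% in WT library 2, 35.5% in EV library 1 and 29% in EV library 2. The members moved by 100 kb had H3K27ac at 2.69% to 5.85% over the 6 libraries and both directions, and in each library the members in place lay below both shifted sets. EV H3K27me3 regions without H3K4me1 over 200 bp lay lower still, at 0.00447% to 0.0402%. Members thus stood between H3K4me1 alone and H3K27me3 alone in every library. The regions of these sets differ in width from the members, while the shifted members have the same widths.

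**Figure D4:**
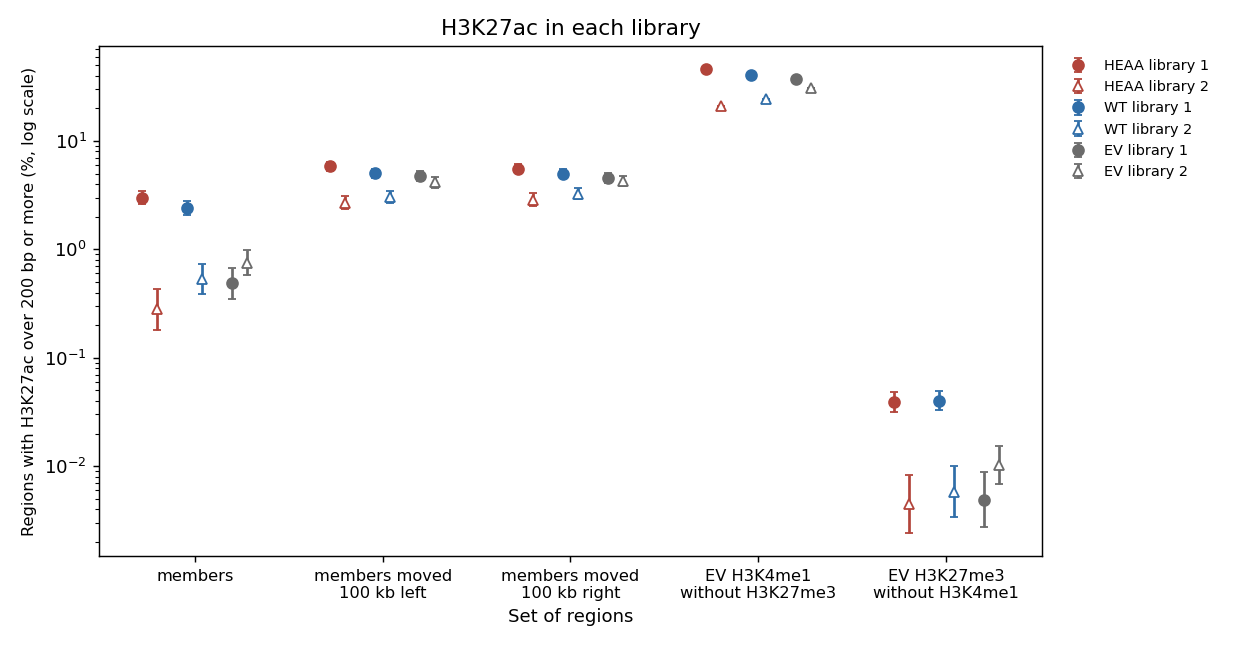
Share of regions with H3K27ac over at least 200 bp (%, log scale, vertical axis) in each of 6 libraries for members, members moved 100 kb either way, EV H3K4me1 regions without H3K27me3, and EV H3K27me3 regions without H3K4me1. Points are single libraries (circles library 1, triangles library 2) with 95% Wilson intervals for counting error. Members lie at 0.280% to 3.01%, below their shifted placements in each library.

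No difference in acetylation between lines was shown over libraries. The mean share was 1.64% ± 1.93 in HEAA, 1.48% ± 1.34 in WT and 0.622% ± 0.188 in EV (SD, n = 2 each). HEAA minus EV was 1.02 percentage points (exact two-sided permutation p = 1), WT minus EV 0.853 points (exact permutation p = 0.667) and HEAA minus WT 0.168 points (exact permutation p = 1). With 2 libraries against 2, the smallest p possible is 0.333. Both UTX lines together minus EV was 0.937 points (exact permutation p = 0.467, 4 against 2 libraries, smallest possible 0.0667). Nothing in the labels says that numbered libraries came from separate cultures, so these p-values measure only the spread between libraries, which may be technical.

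The sign of each difference turned with the library number. Among libraries numbered 1, HEAA minus EV was 2.52 points, WT minus EV 1.93, HEAA minus WT 0.587 and both minus EV 2.22. Among libraries numbered 2, the same differences were −0.476, −0.224, −0.252 and −0.350. The whole EV H3K4me1 list did the same, with HEAA minus EV at 7.81 points in number 1 and −9.30 in number 2, and WT minus EV at 3.05 and −6.16. The H3K27ac lists were the longest in HEAA library 1 and the shortest in HEAA library 2. With all 6 lists limited to the covered length of the shortest, HEAA minus EV was 0.0839 points, WT minus EV 0.0979 and HEAA minus WT −0.0140.

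Acetylation was highest on members where H3K4me1 remained and H3K27me3 did not, clearly so only in the first libraries. In HEAA library 1, 130 of 1741 members with H3K4me1 only were acetylated (7.47%), against 2.12% of those with both marks, 2.22% of those with neither and 0.345% of those with H3K27me3 only. In WT library 1 the shares were 6.34% with H3K4me1 only, 1.38% with both, 1.23% with neither and 0.312% with H3K27me3 only. In the second libraries members with H3K4me1 only stood at 0.574% in HEAA and 0.792% in WT, beside 0.200% in HEAA and 0.740% in WT for those with both marks. Those with neither stood at 0.342% in HEAA and 0.431% in WT. The counts were small, at 10 members with H3K4me1 only and 5 with both in HEAA, and 15 of each in WT. In WT the Wilson intervals of these 2 states overlapped widely (0.481% to 1.30% and 0.449% to 1.22%).

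The members with H3K4me1 only in HEAA had H3K27ac at 0.862% in EV library 1 and 0.919% in EV library 2, while those with H3K27me3 only had it at 0.115% and 0.288% there. The members with H3K4me1 only in WT had it at 1.00% and 1.11% in the EV libraries 1 and 2, and those with H3K27me3 only in WT at 0% and 0.125%. Members with both marks in HEAA had it at 0.480% and 1.12% in EV libraries 1 and 2, and those with both marks in WT at 0.444% and 1.09%. In EV, where by the rule all members carried both marks, those that had H3K27me3 only in HEAA or WT were thus the lowest of these 3 states in both libraries. Those with H3K4me1 only were the highest in EV library 1, while in EV library 2 they lay below the members with both marks for HEAA and next to them for WT. State and acetylation were read from different libraries of a line.

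H3K27ac also varied with the layout and width of members in EV. Where the H3K27me3 region lay inside the H3K4me1 region, 9.20% of 598 members were acetylated in HEAA library 1, 6.86% in WT library 1 and 1.84% in EV library 1, but 0.836% in HEAA library 2, 1.00% in WT library 2 and 2.51% in EV library 2. Where the H3K4me1 region lay inside, the shares of 3867 members were 1.68% in HEAA library 1, 1.42% in WT library 1 and 0.155% in EV library 1, and 0.181% in HEAA library 2, 0.362% in WT library 2 and 0.362% in EV library 2. Of the 125 members of 1600 bp or more, 17.6% had H3K27ac over at least 200 bp in HEAA library 1, 14.4% in WT library 1 and 4.00% in EV library 1, against 2.40% in HEAA library 2, 5.60% in WT library 2 and 4.80% in EV library 2. The order of the lines differed between library numbers, while the enclosed H3K27me3 layout lay above the enclosed H3K4me1 layout in all 6 libraries. Wide members offer more bases to cover, and this was not adjusted for.

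H3K27ac was less frequent at the centres of members than 1 kb away. At the centre it covered 2.41% of members in HEAA library 1, against 3.16% at 1 kb to the left and 3.05% at 1 kb to the right. In EV library 1 the same values were 0.392%, 1.31% and 1.51%, and the centre was the lower in all 6 libraries. Farther out this held in 4 libraries only, since at 2.5 kb to the left the share was 1.76% in HEAA library 1 and 1.58% in WT library 1, below their centres (2.41% and 1.97%). The median distance from a member to the nearest H3K27ac region was 19.1 kb in HEAA library 1 and 46.5 kb in HEAA library 2, 22.1 and 40.8 kb in WT libraries 1 and 2, and 26.9 and 33.9 kb in EV libraries 1 and 2. Members moved to the left were nearer, at 15.8 and 35.0 kb in HEAA, 18.4 and 31.0 kb in WT, and 21.6 and 26.4 kb in EV.

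H3K27ac calls on members were seldom shared between libraries. In total 317 members (4.43%) were acetylated in at least 1 library, beside 50.4% of all EV H3K4me1 regions and 500 and 477 shifted members. All 6 libraries had it at 2 members, beside 16.2% of EV H3K4me1 regions and 158 and 173 shifted members. Both libraries of HEAA had it at 17 members (beside 19.4%, and 186 and 204 shifted), both of WT at 24 (beside 21.3%, and 197 and 220 shifted), and both of EV at 13 (beside 25.2%, and 252 and 256 shifted). By contrast, 81 members (1.13%) had it only in the first libraries of HEAA and WT, beside 4.16% of EV H3K4me1 regions and 33 and 28 shifted members. This was the one of these patterns in which members in place outnumbered both shifted sets.

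Few members had H3K27ac in both UTX lines and not in EV. Over at least 200 bp, 7 members had it in all 4 HEAA and WT libraries and in no EV library (0.0979%, beside 0.257% of all EV H3K4me1 regions). Of these 7, 5 had H3K4me1 only, 1 had both marks and 1 had neither in HEAA, and 4 had H3K4me1 only, 2 had both and 1 had neither in WT. The reverse pattern was seen at 2 members (0.0280%, beside 0.58% of all EV H3K4me1 regions). Both counts were a smaller share than among EV H3K4me1 regions as a whole, whose median width is 741 bp.

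The widest of the 7 lay on chromosome 2 from 121493910 to 121495547. Its H3K27ac fold enrichment was 5.22 and 3.40 in HEAA libraries 1 and 2 and 4.94 and 4.17 in WT libraries 1 and 2, and a region of 3.41-fold touched it by less than 200 bp in EV library 1. It had H3K4me1 regions of 4.00-fold in HEAA, 2.79 in WT and 3.09 in EV, and an H3K27me3 region only in EV (2.39-fold). Here H3K27me3 was absent from the lists of the lines in which H3K27ac was called in both libraries.

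A member on chromosome 12 from 18414868 to 18415163 showed the same pattern without any H3K27ac in EV. Its H3K27ac fold was 5.81 and 3.75 in HEAA libraries 1 and 2 and 5.70 and 4.06 in WT libraries 1 and 2, and its H3K27me3 region was called only in EV (2.08-fold). A member on chromosome 14 from 101942702 to 101943005 had H3K27ac folds of 4.41 and 5.22 in HEAA and 4.24 and 4.49 in WT, and H3K27me3 only in EV (2.12-fold). By contrast, one on chromosome 3 from 145878187 to 145879501 kept both marks, with H3K27me3 at 2.48-fold in HEAA, 2.57 in WT and 3.49 in EV. Its H3K27ac fold was 2.64 and 3.04 in HEAA and 3.12 and 2.94 in WT.

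A member on chromosome 6 from 121758678 to 121759756 differed between the UTX lines, with H3K27me3 not called in HEAA and called at 2.67-fold in WT and 2.70-fold in EV. Its H3K27ac fold was 4.85 and 5.09 in HEAA and 5.19 and 4.01 in WT. Both members with the reverse pattern were narrow. One on chromosome 7 from 25892428 to 25892753 had H3K27ac of 9.64-fold and 9.31-fold in EV libraries 1 and 2 and none in HEAA or WT. It lay 2.68 kb from a UTX peak and 5.77 kb from an MLL4 peak of HEAA. The nearest peaks of WT lay 823.9 kb away for UTX and 1095.65 kb away for MLL4. The other, on chromosome 12 from 116195631 to 116196014, had 3.58-fold and 3.22-fold in the EV libraries.

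The 10 widest members kept both marks in HEAA and in WT, and none lay within 10 kb of a UTX or MLL4 peak of either line. Such peaks were rare near all members, at 1.65% (HEAA) and 1.59% (WT) for UTX and 0.364% and 0.322% for MLL4. None of 10 is therefore close to the share of all members. The 10 widest measured 2808 to 5045 bp. The widest, on chromosome 7 from 155600537 to 155605581, had H3K4me1 at 3.24-fold in HEAA, 3.72 in WT and 4.06 in EV, and H3K27me3 at 3.66-fold in HEAA, 3.39 in WT and 4.79 in EV. H3K27ac regions touched it at 2.81-fold in HEAA library 1, 2.92 in WT library 1 and 3.09 in WT library 2, and not in the other 3 libraries. Of the 10, 3 were touched by H3K27ac in HEAA library 1, none in HEAA library 2, 4 in WT library 1, 1 in WT library 2, none in EV library 1 and 1 in EV library 2. Another 5 members of 2605 to 2729 bp, the next widest with both marks in all lines, included one on chromosome 7 from 28354254 to 28356858 with H3K27ac of 3.20-fold in HEAA library 1, 3.27 in WT library 1 and 3.20 in EV library 1.

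UTX peaks were seldom near members. Within 10 kb lay a UTX peak of HEAA at 118 members (1.65%, Wilson interval 1.38% to 1.97%), beside 7.55% of all EV H3K4me1 regions, and a UTX peak of WT at 114 members (1.59%, 1.33% to 1.91%), beside 6.91%. With the members moved by 100 kb, 240 (left) and 208 (right) had a UTX peak of HEAA within 10 kb, and 208 and 197 had one of WT. The members in place were at 0.526 of the shifted mean in HEAA and 0.562 in WT. With a shift of 10 kb the ratios were 0.971 in HEAA and 1.00 in WT, so members had fewer UTX peaks nearby than places 100 kb away and about as many as places 10 kb away, whose windows overlap their own. UTX peaks of EV lay within 10 kb of 8 members (0.112%, beside 0.0774% of all EV H3K4me1 regions), against 4 and 3 shifted members.

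Within 1 kb, the count of members with UTX was near that of shifted placements. There, 26 members had a UTX peak of HEAA, against 32 and 26 shifted, and 27 had one of WT, against 32 and 24 shifted. These were 0.364% of members for HEAA, beside 2.82% of all EV H3K4me1 regions, and 0.378% for WT, beside 2.55%. These cases gathered among the strongest members. In the strongest of the 10 groups by EV fold rank, 18 of 715 members had a UTX peak of HEAA within 1 kb (2.52%, against 0.559% for that group shifted) and 15 had one of WT (2.10%, against 0.490% shifted). In the next group, 4 members had one of HEAA and 3 one of WT, and in the weakest none had one of either line. Within 10 kb the strongest group was at 5.59% in HEAA, against 3.01% shifted, and at 4.76% in WT, against 3.01% shifted.

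**Figure D5:**
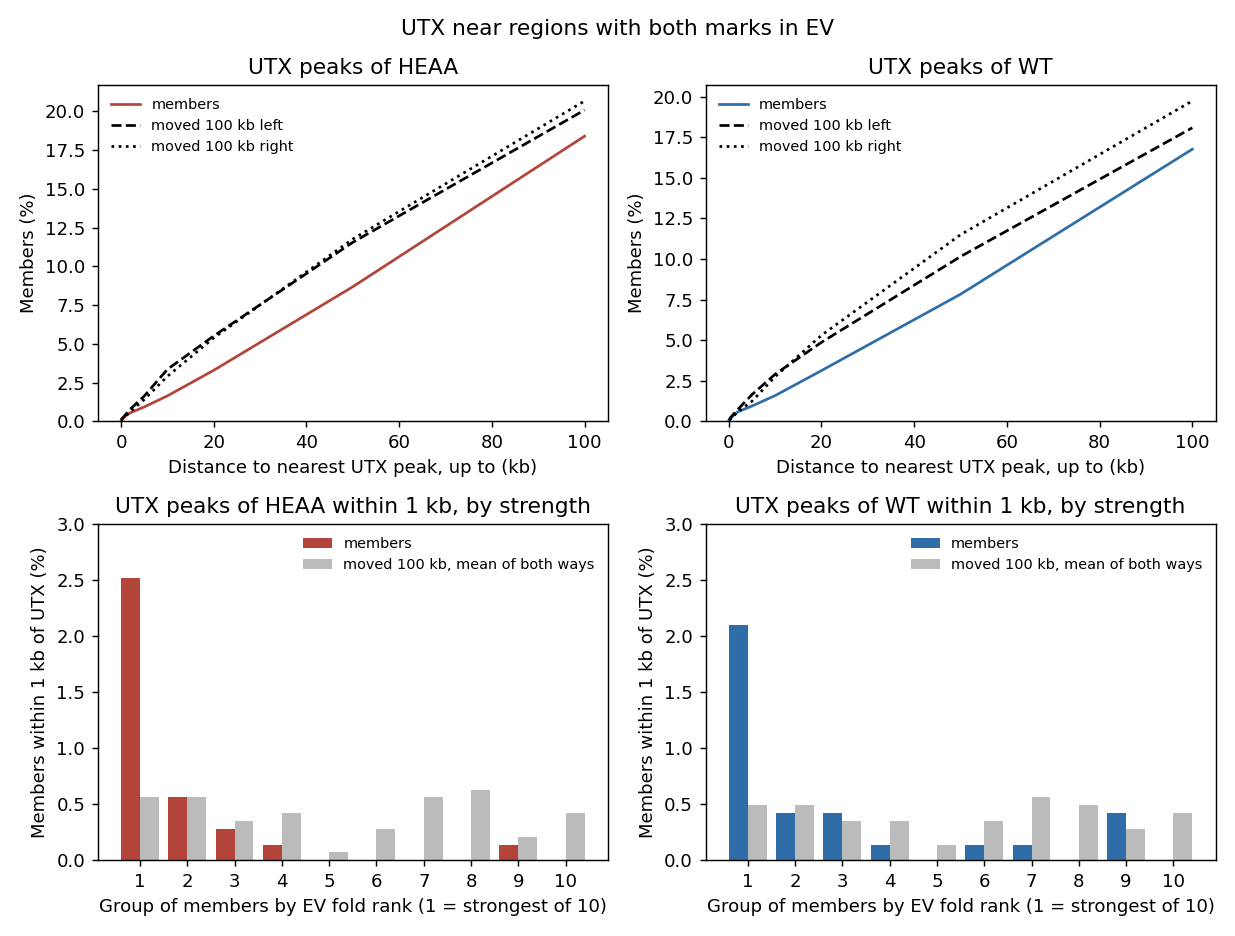
Top: share of members (%, vertical axis) with a UTX peak of HEAA or WT within the distance on the horizontal axis (kb), in place and moved 100 kb either way. Bottom: share within 1 kb of a UTX peak (%) by group of members ranked by EV fold (10 groups, 1 strongest), beside the same members moved 100 kb (mean of both ways); the strongest group stands at 2.52% in HEAA and 2.10% in WT.

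Within 1 kb of a UTX peak in both lines lay 22 members, of which 17 had both marks in HEAA and 10 in WT. Of the 22, 2 had H3K27ac in at least 1 library, beside 4.43% of all members. An MLL4 peak of HEAA or WT lay within 1 kb of 1 of the 22, beside 0.0280% of all members for HEAA and 0% for WT. These small counts were not tested. Over all members near a UTX peak of HEAA (within 10 kb), 47.5% had both marks in HEAA (38.7% to 56.4%), against 34.8% of the rest. Near a UTX peak of WT, 31.6% had both marks in WT (23.8% to 40.6%), against 28.3% of the rest. Read in the other line, members near a UTX peak of WT had both marks in HEAA at 48.2%, against 34.8% of the rest. Those near a UTX peak of HEAA had both marks in WT at 33.1%, against 28.3% of the rest. Of the 118 members near UTX in HEAA, 40 were in the strongest of the 10 groups by EV fold rank. So were 34 of the 114 in WT. That group as a whole had both marks at 72.7% in HEAA and 67.0% in WT. The members within 1 kb gathered in it as well, and strength in EV was not adjusted for in these comparisons. Members share UTX peaks, since the 26 members within 1 kb in HEAA lay near 22 peaks and the 27 in WT near 23, so these members are not independent of each other.

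A UTX peak overlapped 3 members in HEAA, against 7 and 6 shifted, and the same 3 in WT, against 5 and 6 shifted. That was 0.0420% of members in each line, beside 1.47% of all EV H3K4me1 regions for HEAA and 1.28% for WT. On chromosome 7 from 51112793 to 51114031 the UTX peak had a fold enrichment of 9.62 in HEAA and 9.60 in WT, and the member kept both marks in both lines. On chromosome 6 from 168899855 to 168900606 UTX stood at 7.21-fold in HEAA and 7.74-fold in WT, and on chromosome 5 from 1555462 to 1555716 at 5.96-fold in HEAA and 5.89-fold in WT. The last 2 had both marks in HEAA and H3K4me1 only in WT, though at the member on chromosome 6 an H3K27me3 region of WT (3.86-fold) covered less than 200 bp. None of the 3 was touched by H3K27ac in any library, while 4.43% of all members had it over at least 200 bp in at least 1 library.

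The 10 members with the best mean of their EV fold ranks included 6 within 10 kb of a UTX peak of HEAA and 3 within 10 kb of one of WT. The first, on chromosome 21 from 45667524 to 45668833, had H3K4me1 at 5.03-fold in HEAA, 5.07 in WT and 5.72 in EV, and H3K27me3 at 5.57-fold in HEAA, 5.12 in WT and 4.25 in EV. It lay 3.35 kb from a UTX peak of HEAA and 3.37 kb from one of WT, and had no H3K27ac. Neighbouring members on chromosome 3, one at 133661514 to 133662226 and the next at 133663745 to 133664421, shared 1 H3K4me1 region and lay 0.28 and 1.06 kb from a UTX peak of HEAA and 0.22 and 1.08 kb from one of WT. Of the 10, 9 had both marks in HEAA and 8 in WT.

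At one of these 10, on chromosome 22 from 18945208 to 18945974, a UTX peak lay 0.42 kb away in HEAA and the nearest one of WT lay 60.8 kb away. At another, on chromosome 15 from 65350600 to 65350880, the distances were 0.79 kb in HEAA and 306.8 kb in WT. Both kept both marks in both lines, the first with H3K27me3 at 2.10-fold in HEAA, 2.69 in WT and 3.52 in EV, and the second at 2.90-fold in HEAA, 3.07 in WT and 3.53 in EV. The member on chromosome 17 from 63133874 to 63134251 had H3K27me3 in EV only (4.23-fold) and H3K4me1 at 3.05-fold in HEAA, 3.49 in WT and 4.70 in EV.

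MLL4 peaks were rarer still near members. Within 10 kb lay an MLL4 peak of HEAA at 26 members (0.364%, beside 3.13% of all EV H3K4me1 regions), against 100 and 99 shifted members. An MLL4 peak of WT lay within 10 kb of 23 members (0.322%, beside 2.53%), against 77 and 74 shifted members. For EV the count was 9 (0.126%, beside 0.345%), against 22 and 11 shifted. The ratio to the shifted mean was 0.261 in HEAA and 0.304 in WT, and with a shift of 10 kb it was 0.605 in HEAA and 0.730 in WT. No member overlapped an MLL4 peak of any line, beside 0.495% of all EV H3K4me1 regions for HEAA and 0.377% for WT. Within 1 kb there were 2 members in HEAA (beside 1.11%, and 15 and 8 shifted) and none in WT (beside 0.894%, and 11 and 7 shifted).

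Among the strongest members MLL4 stayed rare. In the strongest of the 10 groups 1 of 715 members had an MLL4 peak of HEAA within 1 kb and none had one of WT. Within 10 kb, 6 had one of HEAA (0.839%, against 1.96% shifted) and 3 one of WT (0.420%, against 1.40% shifted). Peaks of MLL4 were fewer than those of UTX, at 1125 against 2854 in HEAA and 898 against 2565 in WT. Seen from the factors, 80 of 2854 UTX peaks of HEAA (2.80%) and 78 of 2565 of WT (3.04%) lay within 10 kb of a member, and so did 22 of the MLL4 peaks of HEAA (1.96%) and 18 of those of WT (2.00%).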

How the data were processed

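Peak lists from ChIP-seq of 3 UMUC1 lines were used, 18 in all, and 6 input samples were not analysed here. Per the labels' protocols, histone marks were mapped on sonicated chromatin, while UTX and MLL4 samples had a micrococcal nuclease step before sonication. MACS2 and the builds hg19 and GRCh37 come from the submitters' processing notes. Versions, aligner and read filters: not given in the sources used here. Fold enrichment is a linear ratio from the authors' peak caller. The deposited lists hold −log10 p-values and −log10 q-values, and a deposited score, which was not used. H3K27ac was called per library.

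Regions on chromosomes 1 to 22 and X were kept. Intersections, coverage and distances were computed with Python 3.11.15 (NumPy 2.4.6, pandas 2.3.3) by code tested on simulated data, and figures were drawn with matplotlib 3.10.9. A histone mark counted where it covered at least 200 bp, and a factor was near within 10 kb. Folds of named members are those of any region that touches them by 1 bp. Fixed shifts of 100 kb either way served as placements, without a p-value. Shares have 95% Wilson intervals, and the shares of members with H3K27ac were compared by exact two-sided permutation of the libraries.

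Named members were the 10 widest, the 10 best by mean EV fold rank, the next 5 widest with both marks in all lines, up to 5 each with H3K27ac gained or lost in both UTX lines, and those overlapping UTX or MLL4 in HEAA and WT. Clusters were named by size. The members and these rules were chosen with earlier results of these data known. Positions are on hg19, counted from 1. Genome sequence and gene annotation of that build were not used here, so members are named by position. Alternatives covered the q threshold, width, overlap rule, list length, shift, distance and libraries.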

Additional observations from a re-analysis of the deposited data

How the results depend on the processing

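Of the 94 alternative values computed, 52 were counted as unchanged, 33 moved and 9 changed sign. Every acetylation difference that kept its sign was counted as unchanged, whatever its size. At equal list length, for example, HEAA minus EV fell from 1.02 to 0.0839 points and was still counted so. Requiring a −log10 q of 2 in EV left 2933 members, and a minimum of 500 bp left 2353. Both marks in HEAA were then at 53.1% and 59.2%, and in WT at 45.1% and 51.4%. Counting any overlap of 1 bp gave 44.9% in HEAA and 36.4% in WT, counting 50% of the member 32.7% in HEAA and 25.8% in WT, and equal covered length 20.8% in HEAA and 21.3% in WT. The length ratio to shifted placements was 0.429 with a shift of 10 kb.

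For UTX of HEAA, the share of members nearby was 2.08% with a −log10 q of 2, 2.21% at 500 bp, 0.0420% at overlap, 0.364% within 1 kb and 8.69% within 50 kb. For UTX of WT these were 1.94%, 2.17%, 0.0420%, 0.378% and 7.83%. For MLL4 of HEAA the share was 0% at overlap, 0.0280% within 1 kb and 3.99% within 50 kb, and for MLL4 of WT 0%, 0% and 2.73%. With a shift of 10 kb the ratio to shifted placements was 0.971 for UTX of HEAA, 1.00 for UTX of WT, 0.605 for MLL4 of HEAA and 0.730 for MLL4 of WT.

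The acetylation differences did not keep their sign. Leaving out each library in turn, HEAA minus EV ran from −0.343 to 2.38 points, WT minus EV from −0.0909 to 1.80, HEAA minus WT from −1.20 to 1.53, and both minus EV from 0.455 to 1.36. HEAA minus EV was −0.343 without HEAA library 1, WT minus EV −0.0909 without WT library 1, and HEAA minus WT −1.20 without HEAA library 1 and −0.776 without WT library 2. With library number 2 alone, a split chosen after seeing the data, the values were −0.476, −0.224, −0.252 and −0.350. Equal list length gave HEAA minus WT as −0.0140. Over the alternatives with a test, exact p ran from 0.333 to 1 for HEAA minus EV and for WT minus EV, 0.667 to 1 for HEAA minus WT and 0.3 to 1 for both minus EV. With the replicate number as a block, the differences were 1.02, 0.853, 0.168 and 0.937 points (exact sign-flip p = 1 each, 2 numbers, which share only a number in the labels). The cause of these changes was not tested. Depth is unknown, so a missing call cannot be told apart from weak signal.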

Other observations

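Of the 31 UTX peaks of EV, 4 lay within 10 kb of a member (12.9%) and 3 lay within 1 kb. Within 10 kb the shares were 2.80% of the UTX peaks of HEAA and 3.04% of those of WT. MLL4 peaks of EV lay within 10 kb of a member at 7 of 133 (5.26%), against 1.96% in HEAA and 2.00% in WT. These counts were not tested.

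The share of members with both marks varied by chromosome. It was 46.3% in HEAA and 42.1% in WT for the 95 members of chromosome 21, and 45.1% in HEAA and 36.3% in WT for the 543 of chromosome 20. For the 41 members of chromosome 18 it was 19.5% in HEAA and 7.32% in WT.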
